A study of Homo sapiens with 6 samples.

Results

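The genes described here are 34 genes of the unfolded protein response and the integrated stress response, taken from a fixed list out of 60663 gene identifiers with counts. They fall into 13 genes for chaperones and degradation factors of the endoplasmic reticulum (ER), 14 amino acid and metabolic targets of the transcription factor ATF4, and 7 genes of the regulatory arm around ATF4, PPP1R15A and DDIT3. All 34 were found in the table and all 34 passed the filter on low counts, which left 19836 genes. The cells were 5637, an established human bladder cancer line, sampled 48 h after transfection. Per the series description all of them carried dCas13b-FTO. In it an inactivated Cas13b that still follows its guide to RNA is fused to the N6-methyladenosine eraser FTO. The sample titles name dCas13b alone, while the names of the count columns begin with FTO in both groups. One group of 3 libraries received a control guide RNA and the other group of 3 a guide against HRAS, so that per the labels both groups share the construct and the transfection, and a response common to both is not visible in their difference. Whether the 3 libraries of a group are 3 cultures is not stated in the labels, so the spread behind each p-value may be technical.

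The ER folds secreted and membrane proteins. When unfolded proteins build up, its sensors IRE1, PERK and ATF6 start the unfolded protein response: ATF6 and spliced XBP1 induce chaperones and degradation factors, while PERK phosphorylates the translation factor eIF2. Phosphorylated eIF2 lowers most translation and raises that of ATF4, the branch shared with other stress kinases and called the integrated stress response. ATF4 induces amino acid transport and synthesis, the transcription factor DDIT3 (CHOP), and PPP1R15A (GADD34), which brings a phosphatase to eIF2 and ends the response.

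Library totals ran from 24968702 to 32283370 counts. Levels are given in CPM, counts scaled to the size of the library. HRAS, the target of the guide, measured 146 to 230.4 CPM in the controls and 167 to 199.9 CPM in the other group, with a log2 fold change of 0.014 ± 0.15 (SE). Corrected for GC content and transcript length, HRAS measured 168, 188 and 175 CPM in the controls and 188, 188 and 181 CPM with its guide. That log2 fold change of 0.066 ± 0.051 did not pass (edgeR adjusted p = 0.954). FTO measured 32.1 to 38.1 CPM as counted in the controls and 30.9 to 31.4 CPM in the HRAS guide libraries, without overlap. Its log2 fold change of -0.19 ± 0.10 as counted and -0.20 ± 0.064 after a correction for GC content and transcript length did not pass (edgeR adjusted p = 1.00 and 0.653), and whether its count holds RNA of the construct was not tested. The libraries differed along GC content within both groups. Across genes, GC content correlated with the deviation of a library's log2 CPM from the 6-library mean at a Spearman's rho of -0.46, 0.61 and -0.21 for the 3 control libraries, in the order of their replicate numbers, and 0.27, -0.49 and 0.058 for the 3 HRAS guide libraries. This rho is a description, since genes share a library and are not replicates. Results are therefore given as counted and, for the arms and many of the genes, also after a correction for GC content and transcript length. Some genes are given as counted only. All 8 epithelial markers were expressed, with a summed level of 9951 to 13255 CPM in the control and 10207 to 11641 CPM in the HRAS guide libraries. Of 8 urothelial markers 4 passed the filter (115 to 126 CPM summed over the list in any library), GATA3 and PPARG among them, while KRT20 and the uroplakin genes UPK1A, UPK1B and UPK3A did not pass. Of the markers of other cells, the 6 immune, 4 endothelial and 3 red cell markers summed to at most 4.93 CPM each, and 7 fibroblast and muscle markers to 157 to 216 CPM in the control and 145 to 189 CPM in the HRAS guide libraries, above the urothelial list. Nearly all of that was COL1A1, with a control mean of 175 CPM.

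Known elements of the response were searched for in the promoters of these genes. Windows of the 250 bases before RefSeq start sites were available for 31 of the 34 genes (45 windows, as some genes have several starts) and were searched on both strands. The ER stress element ERSE (CCAAT, 9 bases of any kind, CCACG), known to bind ATF6 together with NF-Y, was matched in 6 of the 13 ER chaperone and degradation genes (HSPA5, HSP90B1, XBP1, PDIA6, CALR and CRELD2) and in 0.0916% of 27305 genes with windows. ERSE-II (ATTGG and CCACG, 1 base apart) was matched in another 3, HERPUD1, SDF2L1 and HYOU1, and in 0.0659% of all genes. The C/EBP-ATF response element CARE (TGATGNAA), known to bind ATF4 with a C/EBP partner, was matched in ASNS, CHAC1, CEBPG and HERPUD1, and in 3.89% of all genes. The XBP1 element UPRE (TGACGTG) was matched in HYOU1, where it overlaps an ERSE-II, and in 2.05% of all genes. The palindrome CRE (TGACGTCA), bound by ATF and CREB factors, was matched in PPP1R15A alone among the 31 genes and in 2.03% of all genes. In all, 13 of the 31 genes held at least 1 of the 5 motifs, 9 of them ER chaperone and degradation genes, and 18 held none, ATF4, ATF5, DDIT3, TRIB3 and CEBPB among them. Of the 11 amino acid and metabolic targets of ATF4 with windows, 2 held one.

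The stretches shown come from genes whose values are described first below, read 5′ to 3′ on the gene's strand, with the fixed letters of each motif in capitals and 12 bases to either side. They lie at chr9:125241379-125241421 (HSPA5, minus strand), chr19:12938372-12938414 (CALR, plus), chr16:56931954-56932047 (HERPUD1, plus), chr22:21642102-21642136 (SDF2L1, plus), chr19:48872351-48872382 (PPP1R15A, plus) and chr19:33374059-33374090 (CEBPG, plus) on GRCh38.p14. None of them overlaps an exon annotated in GENCODE release 29, since stretches that do (HSP90B1, XBP1, PDIA6, ASNS and CHAC1) are not shown. HSPA5 and CALR show ERSE, in CALR on the opposite strand. HERPUD1 shows a CARE on the opposite strand and, towards the start site, an ERSE-II, SDF2L1 an ERSE-II on the opposite strand, PPP1R15A the CRE and CEBPG a CARE.
HSPA5: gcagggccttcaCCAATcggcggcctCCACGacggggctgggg
CALR: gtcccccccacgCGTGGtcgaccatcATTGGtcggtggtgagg
HERPUD1: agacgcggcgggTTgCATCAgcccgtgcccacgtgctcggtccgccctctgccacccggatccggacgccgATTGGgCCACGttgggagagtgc
SDF2L1: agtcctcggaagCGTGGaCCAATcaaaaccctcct
PPP1R15A: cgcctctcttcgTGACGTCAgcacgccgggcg
CEBPG: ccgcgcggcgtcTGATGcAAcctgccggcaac

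With the HRAS guide most of these 34 genes stood close to their control level. The 2 with the smallest p were PPP1R15A and DDIT3. Their arm was drawn up around them, so that they share it is no result. By edgeR's quasi-likelihood test 0 of the 34 passed an adjusted p of 0.05, beside 2 of all 19836 genes (0.0101%), both lower. At an unadjusted p under 0.05 there were 2 lower, these same genes, and 0 higher, beside 1.70% and 1.64% of all genes. DESeq2 and limma-voom also called 0 of the 34, beside 0.144% and 0.00504% of all genes. After the GC and length correction 1 of the 34 passed, PPP1R15A, beside 0.200% of all genes, 0.190% lower and 0.0103% higher. At an unadjusted p under 0.05 the corrected fit had 4 of the 34 lower and 0 higher, beside 2.99% and 2.81% of all genes. The median log2 fold change over the 34 was -0.028 as counted and 0.0040 after the correction, beside -0.0014 and -0.0001 over all genes tested. In these bulk samples fewer expressing cells and less RNA per cell cannot be told apart.

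**Figure D1:**
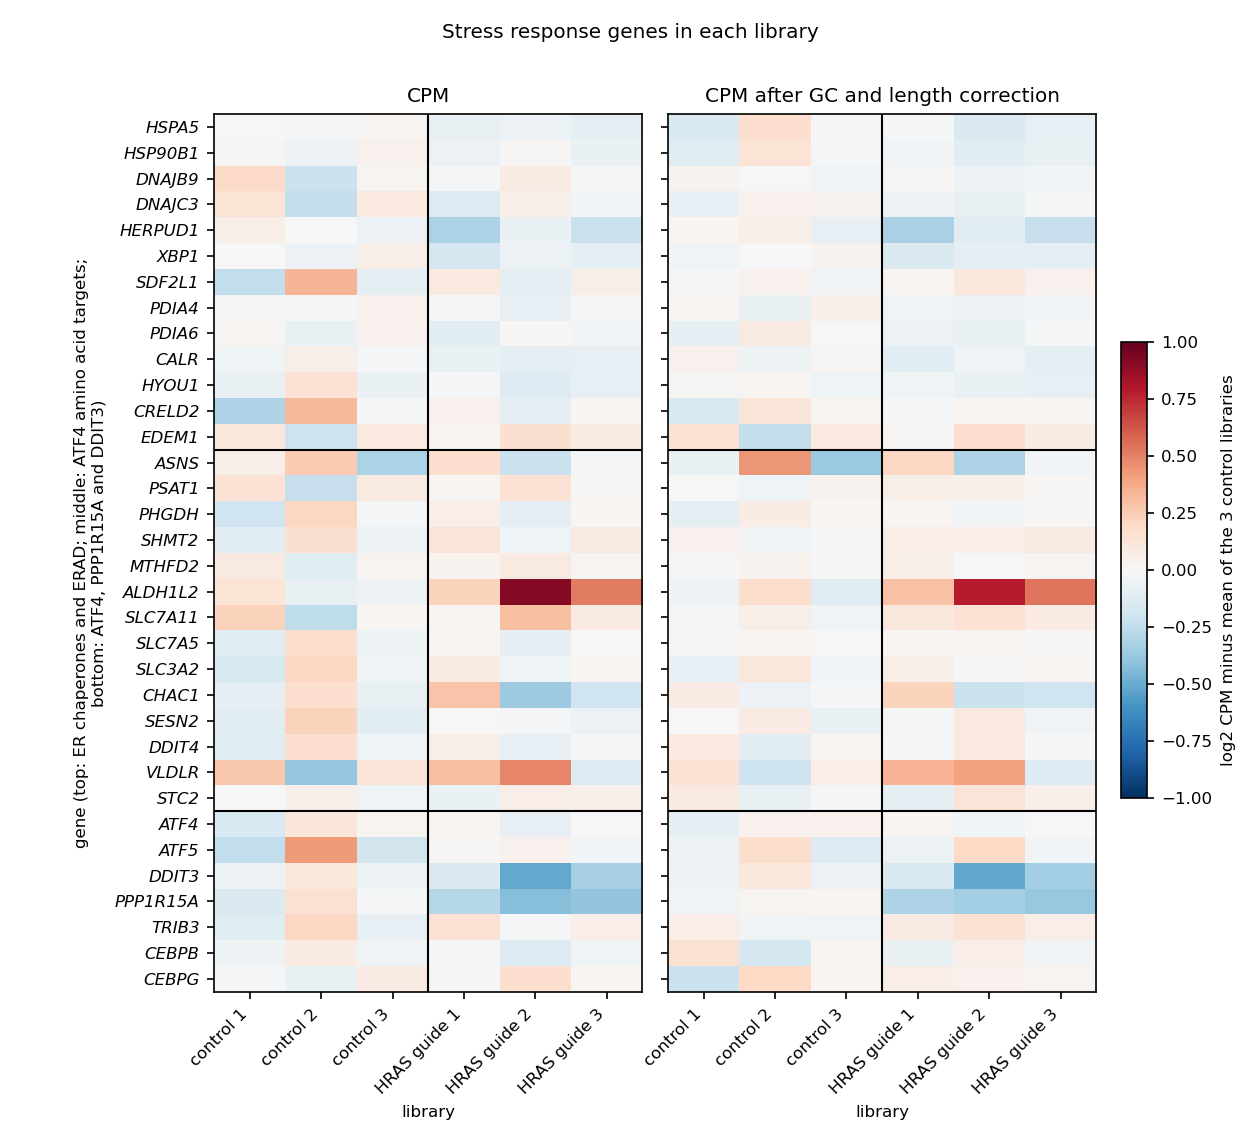
Each row is 1 of the 34 genes and each column 1 library; colour gives log2 CPM minus the mean of the 3 control libraries, as counted (left) and after the GC and length correction (right), on a scale from -1 to 1. PPP1R15A and DDIT3 are lower in all 3 HRAS guide libraries in both panels, ALDH1L2 is higher in all 3, and many rows of control replicate 2 that stand out on the left are pale on the right.

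PPP1R15A (ENSG00000087074, GRCh38 chromosome 19, 48872392 to 48876057, plus strand) encodes the regulatory subunit that directs protein phosphatase 1 to eIF2. Its control libraries measured 208, 255 and 228 CPM and its HRAS guide libraries 188, 171 and 175 CPM, here and below in the order of their replicate numbers. The groups do not overlap, and the spread was wider among the controls (mean ± SD of 230.3 ± 23.5 against 178 ± 8.94 CPM, n = 3 each). This is a change of -22.7%, or -0.37 ± 0.093 as log2 fold change (SE, 95% interval -0.58 to -0.16), with an edgeR adjusted p of 0.904. After the correction the controls drew together at 221, 232 and 231 CPM, and the HRAS guide libraries stood at 184, 180.5 and 175 CPM. There PPP1R15A fell by 0.34 ± 0.045 on the log2 scale (95% interval -0.44 to -0.24, adjusted p = 0.0119 by edgeR). The libraries form 2 sets by the sign of their rho, and the log2 difference between the guides was -0.35 in the negative set (control replicates 1 and 3, HRAS guide replicate 2) and -0.49 in the positive set (control replicate 2, HRAS guide replicates 1 and 3), or -0.32 and -0.37 after the correction. Of the 6 corrected fits that left out a library, 2 kept the call and 4 lost it in edgeR, with adjusted p = 0.155 when control replicate 3 was absent and 0.0885, 0.108 and 0.206 when HRAS guide replicate 1, 2 or 3 was, while the log2 fold change stayed between -0.36 and -0.32 in all 6. No exon of another annotated gene overlaps PPP1R15A.

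DDIT3 (ENSG00000175197, chromosome 12, 57516588 to 57521737, minus strand), the transcription factor CHOP, which acts upstream of PPP1R15A in prolonged ER stress, was also lower in each HRAS guide library. Its levels were 10.5, 11.7 and 10.5 CPM in the controls and 9.86, 7.65 and 8.67 CPM with the HRAS guide. The groups do not overlap, but the highest HRAS guide library came close to the lowest control. The log2 fold change of -0.32 ± 0.13 did not pass (edgeR adjusted p = 1.00), nor did the corrected one of -0.33 ± 0.11 (edgeR adjusted p = 0.655). Of its 1307 exon bases, 413 overlap exons on the opposite strand, and 105 overlap exons of another gene on the same strand, so that part of these counts is uncertain. Exons on the opposite strand overlap 17 of the 34 genes to some extent.

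The factors around them stood closer to their control level, and none passed. ATF4, whose protein level is set mainly by translation, stood at 296, 358 and 336 CPM in the controls and at 335, 310.2 and 329 CPM with the HRAS guide. The groups overlap fully, and the corrected log2 fold change was -0.0044 ± 0.050, with a 95% interval of -0.11 to 0.10. TRIB3, a pseudokinase induced by ATF4 and DDIT3, stood at 34.8, 43.6 and 35.7 CPM in the controls and at 41.9, 37.6 and 39.7 CPM with the HRAS guide. Its corrected values ran the other way from those of DDIT3, at 36.7 to 39.2 CPM in the controls and 39.3 to 41.4 CPM with the HRAS guide, without overlap and without passing (log2 fold change 0.098 ± 0.060, edgeR adjusted p = 0.913).

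ATF5, a relative of ATF4 controlled in the same way at translation, showed how far 1 library can move a mean. It stood at 14.7, 23.4 and 15.3 CPM in the controls and at 17.5, 17.9 and 17.1 CPM with the HRAS guide, for a log2 fold change of -0.025 ± 0.17. Without control replicate 1 this was -0.15, and without control replicate 2 it was 0.22. CEBPB, a C/EBP factor of stress and inflammation, stood at 191 ± 9.80 and 182 ± 7.48 CPM (log2 fold change -0.066 ± 0.080), and CEBPG, a C/EBP factor that pairs with ATF4, at 58.8 ± 3.05 and 61.3 ± 4.29 CPM (0.059 ± 0.095; SD, n = 3, control guide first). Over the 7 genes of this arm the median log2 fold change was -0.025, with 5 negative and 2 positive, and -0.0044 after the correction, with 4 negative and 3 positive.

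**Figure D2:**
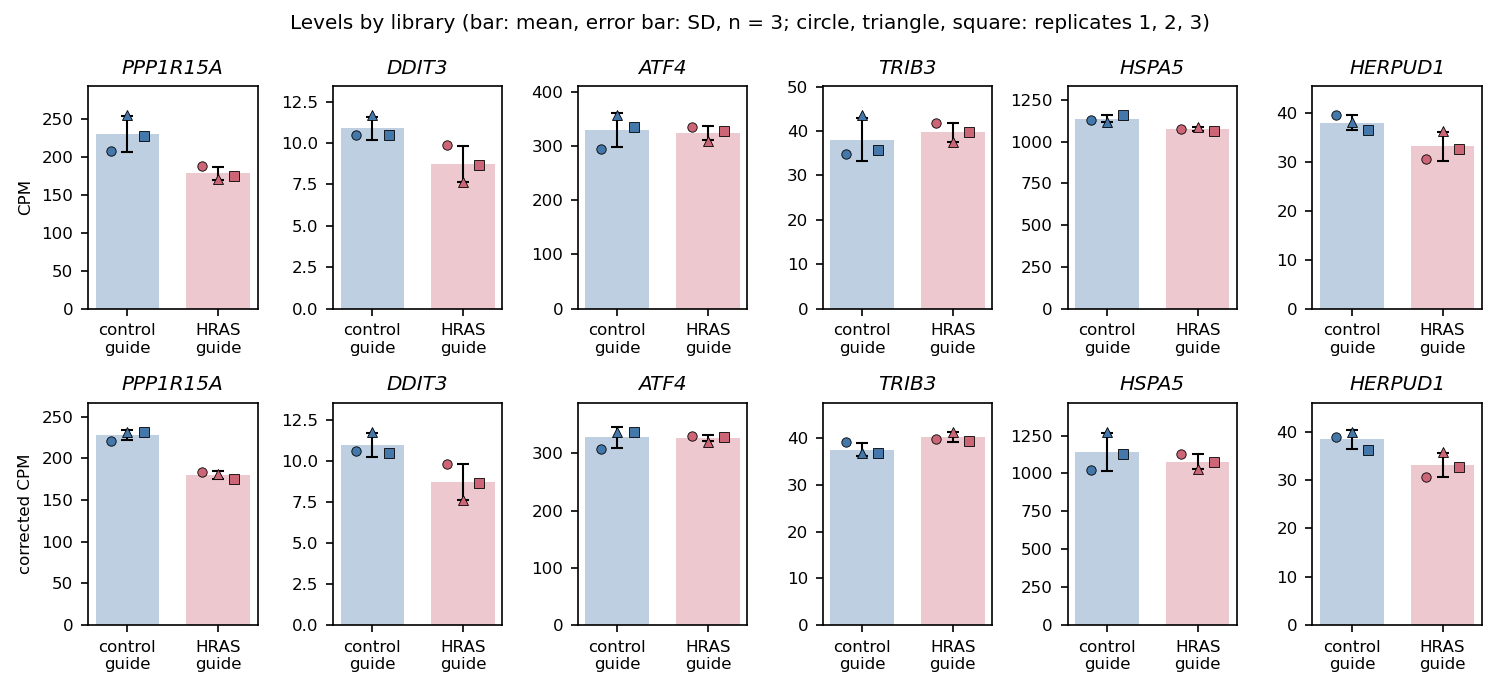
CPM (upper row) and corrected CPM (lower row) of 6 genes with the control guide and the HRAS guide; bars are means of 3 libraries, error bars SDs, and circles, triangles and squares replicates 1, 2 and 3. PPP1R15A, DDIT3 and HERPUD1 show no overlap between the groups in either row, ATF4 overlaps in both, and HSPA5 is tighter as counted (20.5 CPM SD in the controls) than corrected (127 CPM).

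The 13 ER chaperone and degradation genes leaned slightly below the control level, and none passed the test. Of the 13, 10 were negative and 3 positive, both as counted and corrected, with a median log2 fold change of -0.039 and -0.049. Among all genes 50.5% and 50% were negative. By edgeR 0 passed in either fit, with 0 at an unadjusted p under 0.05 as counted and 2 after the correction (HERPUD1 and XBP1), beside 2.99% of all genes lower at that level. In HSPA5, HERPUD1 and CALR the groups did not overlap, with the HRAS guide libraries lower, beside 4.0% of all genes lower without overlap. After the correction this held for HERPUD1, XBP1 and HYOU1, beside 6.26% of all genes. For HYOU1 the margin was very narrow, as control replicate 3 and HRAS guide replicate 1 both round to 223 CPM.

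HSPA5 (BiP), the master chaperone of the ER lumen and the usual marker of the unfolded protein response, stood at 1130.2, 1119 and 1159 CPM in the controls and at 1077, 1089 and 1065 CPM with the HRAS guide. The gap between the groups is small beside the level, a change of -5.17% and a log2 fold change of -0.077 ± 0.062 (95% interval -0.21 to 0.061). After the correction the controls spread to 1024, 1277 and 1129 CPM and overlapped the HRAS guide libraries at 1128, 1032 and 1075 CPM, with a log2 fold change of -0.084 ± 0.071. HSP90B1 (GRP94), the ER member of the HSP90 family, differed less as counted: 604, 580.4 and 618 CPM against 577, 604 and 573 CPM, a log2 fold change of -0.039 ± 0.068. Corrected, the log2 fold change of HSP90B1 was -0.073 ± 0.062, near that of HSPA5. The HSP90B1 groups overlap in both forms. CALR, the lectin chaperone calreticulin, stood at 632, 677 and 645 CPM in the controls and at 620.0, 608 and 614 CPM with the HRAS guide. Its log2 fold change was -0.085 ± 0.067, and corrected values overlapped.

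HERPUD1, a membrane protein of ER-associated degradation whose gene responds to both ATF6 and ATF4, showed the largest difference of the 13. It stood at 39.6, 38.1 and 36.5 CPM in the controls and at 30.5, 36.4 and 32.6 CPM with the HRAS guide. HRAS guide replicate 2 was nearly level with control replicate 3. The log2 fold change was -0.20 ± 0.10, and -0.21 ± 0.073 after the correction (95% interval -0.37 to -0.054, edgeR adjusted p = 0.676). As counted, the log2 difference was -0.061 in the set of negative rho and -0.27 in that of positive rho. After the correction these were -0.073 and -0.33.

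XBP1, the transcription factor that IRE1 activates by splicing, stood at 92.0, 87.9 and 95.6 CPM in the controls and at 81.9, 88.0 and 85.6 CPM with the HRAS guide, which overlap by a narrow margin. Corrected, the groups separated, and the log2 fold change was -0.11 ± 0.049 (edgeR adjusted p = 0.828). These are counts over the whole gene and do not separate spliced from unspliced XBP1. The remaining members were closer still to 0. HYOU1, an exchange factor for HSPA5, had a log2 fold change of -0.077 ± 0.088. The disulfide isomerases PDIA4 and PDIA6 stood at -0.038 ± 0.071 and -0.039 ± 0.078, with control means of 350.4 and 213 CPM.

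The co-chaperones DNAJC3 and DNAJB9, which work with HSPA5, stood at -0.041 ± 0.12 and 0.0064 ± 0.13 on the log2 fold change scale. CRELD2, a secreted ER stress protein, SDF2L1, a partner of DNAJ proteins in the ER, and EDEM1, which delivers misfolded glycoproteins to degradation, stood at -0.036 ± 0.15, 0.0023 ± 0.15 and 0.082 ± 0.11. The 9 genes with an ERSE or ERSE-II ran from -0.20 to 0.0023 as counted, 8 of them negative, and the 4 without a match in their windows (DNAJB9, DNAJC3, PDIA4 and EDEM1) from -0.041 to 0.082, 2 of them negative. Corrected, 7 of the 9 and 3 of the 4 were negative. These counts are a description of few genes and no test of the elements.

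**Figure D3:**
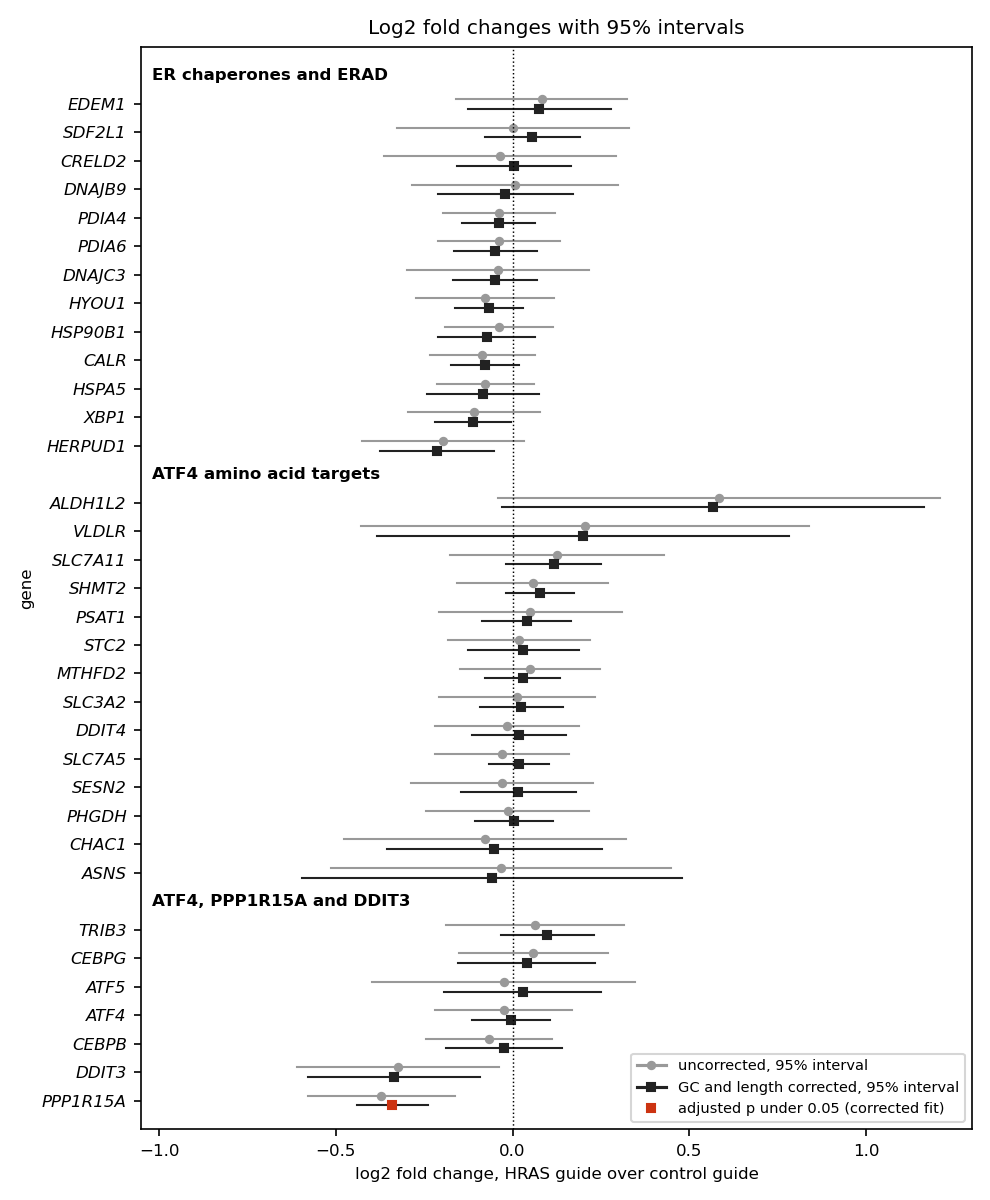
Log2 fold changes (HRAS guide over control guide) of the 34 genes with 95% intervals, as counted (grey circles) and after the GC and length correction (black squares), sorted within each arm. The red square, PPP1R15A, is the only corrected value with an adjusted p under 0.05, and the corrected intervals are mostly narrower, with ALDH1L2, VLDLR and ASNS the widest.

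The 14 amino acid and metabolic targets of ATF4 showed no called change. By edgeR 0 of 14 passed as counted or corrected, with 0 at an unadjusted p under 0.05 in either fit. As counted 6 were negative and 8 positive, with a median log2 fold change of 0.016. Corrected, 2 were negative and 12 positive, with a median of 0.027, so that the split between directions depends on the correction.

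The enzymes of serine and one-carbon metabolism stood near their control level, and none passed. PHGDH, the first enzyme of serine synthesis, stood at 401, 532 and 458 CPM in the controls and at 481, 431 and 466 CPM with the HRAS guide. The corrected log2 fold change was 0.0037 ± 0.050 (95% interval -0.11 to 0.11). PSAT1, the next enzyme, stood at 39.3 ± 5.18 and 40.7 ± 2.20 CPM. The mitochondrial one-carbon enzymes SHMT2 and MTHFD2 stood at log2 fold changes of 0.057 ± 0.096 and 0.050 ± 0.089. Corrected SHMT2 was higher in every HRAS guide library (156, 156 and 158 CPM) than in any control (153, 146 and 147 CPM), a log2 fold change of 0.078 ± 0.044 that did not pass (edgeR adjusted p = 0.893).

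ALDH1L2, another mitochondrial folate enzyme, had the largest fold change of all 34 genes on few counts. It stood at 0.796, 0.688 and 0.694 CPM in the controls and at 0.845, 1.37 and 1.04 CPM with the HRAS guide, without overlap, beside 4.81% of all genes higher without overlap. The log2 fold change was 0.58 ± 0.28, with a 95% interval of -0.042 to 1.21 and an edgeR adjusted p of 1.00. It was carried most by HRAS guide replicate 2: the log2 difference was 0.80 in the negative set and 0.40 in the positive set, and the value ranged from 0.39 to 0.72 over the fits that left out a library.

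None of the amino acid transporters passed. SLC7A5 and SLC3A2, the light and heavy chain of the LAT1 exchanger of large neutral amino acids, were the most abundant of the ATF4 targets. SLC7A5 stood at 1371, 1679 and 1438 CPM in the controls and at 1517, 1393 and 1483 CPM with the HRAS guide. After the correction all 6 libraries lay between 1453 and 1501 CPM, and the log2 fold change was 0.018 ± 0.038 (95% interval -0.066 to 0.10). SLC3A2 stood at 491 ± 66.8 and 496 ± 22.3 CPM (SD, n = 3), a log2 fold change of 0.013 ± 0.099. SLC7A11, the cystine transporter, stood at 38.0, 27.2 and 32.8 CPM in the controls and at 32.8, 39.8 and 34.3 CPM with the HRAS guide. Corrected, it was higher in every HRAS guide library (34.6 to 36.1 CPM) than in the controls (at most 34 CPM), with a log2 fold change of 0.12 ± 0.061 that did not pass (edgeR adjusted p = 0.878). Beside SHMT2, SLC7A11 and ALDH1L2 here, and TRIB3 above, 5.97% of all genes were higher without overlap after the correction.

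CHAC1, a glutathione-degrading enzyme and one of the most responsive ATF4 targets, stood at 5.78, 6.96 and 5.89 CPM in the controls and at 7.52, 4.81 and 5.38 CPM with the HRAS guide. The HRAS guide libraries lay on both sides of the controls, and the log2 fold change was -0.078 ± 0.18 (95% interval -0.48 to 0.32). DDIT4 (REDD1) and SESN2, stress-induced inhibitors of mTORC1, had log2 fold changes of -0.016 ± 0.091 and -0.031 ± 0.12, and STC2, a secreted glycoprotein, of 0.018 ± 0.090. VLDLR, a lipoprotein receptor, was near 1 CPM (0.964 ± 0.215 and 1.12 ± 0.239 CPM), and its 95% interval of -0.43 to 0.84 leaves its direction unresolved.

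ASNS, asparagine synthetase, is often read as the reference target of ATF4, but its count is uncertain in this table. It held 47 to 64 counts per library (1.96 ± 0.385 and 1.92 ± 0.250 CPM). Of its 4455 exon bases, 1985 are shared with an unnamed gene on the same strand, ENSG00000284707, which held 34 to 71 counts per library. Pseudogenes named after ASNS held up to 19.1% of its count. The share of ASNS reads that went uncounted or to these genes was not tested. Its log2 fold change of -0.033 ± 0.22 therefore describes the assigned reads.

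Per kilobase of the longest principal transcript, the level of the genes with the control guide ran from 342 CPM per kb for CALR to 0.0962 CPM per kb for ALDH1L2. CALR was followed by SLC7A5 (329.7), HSPA5 (291), SLC3A2 (227), HSP90B1 (210.2), PHGDH (179) and DDIT4 (176). ATF4 itself stood at 164 CPM per kb and PPP1R15A at 96.8, while DDIT3 stood at 11.6 and CHAC1 at 3.98 CPM per kb. With the HRAS guide PPP1R15A stood at 74.9 and DDIT3 at 9.28 CPM per kb. Each arm spanned a wide range: the ER co-chaperone DNAJB9 stood at 3.47 and the transporter SLC7A11 at 3.39 CPM per kb with the control guide.

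The corrected intervals bound how large a change these libraries leave room for. In 26 of the 34 genes the 95% interval lay within a 1.2-fold difference in either direction, against 13 as counted. Over all genes this held for 7771 of 19489 corrected and for 2629 of 19836 as counted. The width of an interval depends on the count level of the gene. The 34 were not matched to all genes for level, so this contrast is no result about them. In 31 it lay within 1.5-fold, ALDH1L2, VLDLR and ASNS being the exceptions, beside 13229 of 19489 over all genes. The intervals are per gene and are not adjusted for the number of genes. The corrected ones leave out the uncertainty of the offsets, and the spread behind them may be technical.

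Much of the spread among the controls followed GC content. All 17 genes with a GC content of at least 55% were higher in control replicate 2 than in control replicates 1 and 3, and 14 of the 17 below 55% were lower there. Spearman's rho over the 34 genes, which share these libraries, was 0.82 between GC content and the log2 difference of control replicate 2 and control replicate 1. With the log2 fold change between the guides it was -0.19, and 0.029 after the correction. The median within-group SD of log2 CPM went from 0.13 to 0.070 with the correction, and became smaller in 23 genes and larger in 11, HSPA5, HSP90B1, CEBPB and CEBPG among these.

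**Figure D4:**
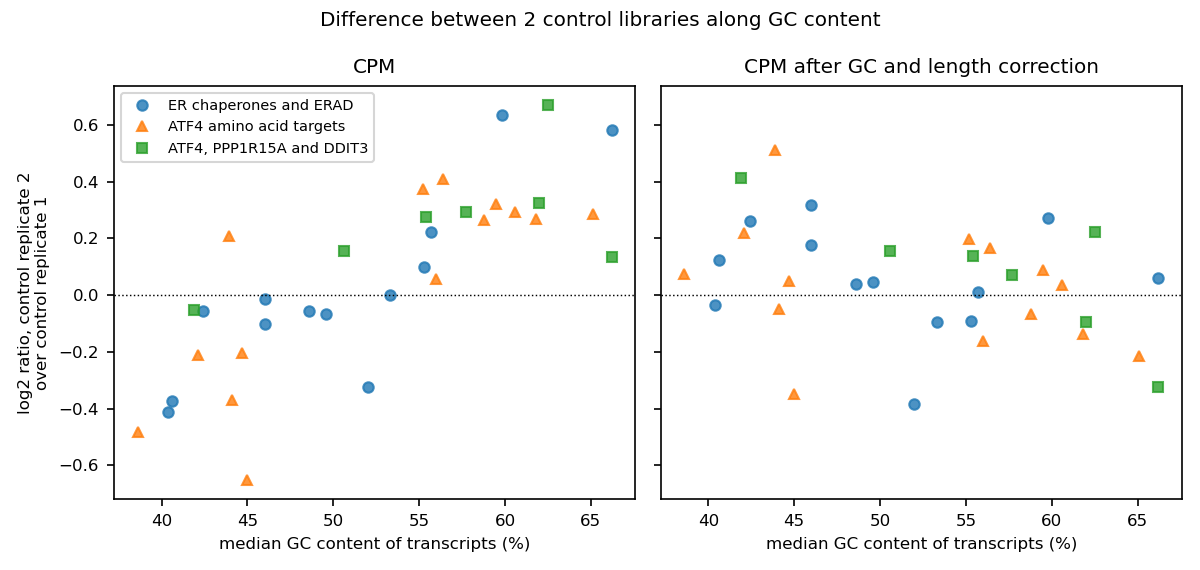
Log2 ratio of control replicate 2 over control replicate 1 for the 34 genes against the median GC content of their transcripts (%), as counted (left) and after the GC and length correction (right); symbols mark the 3 arms. The ratio climbs with GC content on the left (Spearman's rho 0.82) and shows no such climb on the right.

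Other genes of these pathways were examined in lists of sensors and eIF2 machinery (30 of 31 genes tested), further ER folding and degradation genes (40 of 40) and further ATF4 targets (36 of 38). By edgeR 0 of the 106 passed as counted. Of these 3 were lower and 0 higher at an unadjusted p under 0.05, beside 1.70% and 1.64% of all genes, and 5 were lower and 1 higher after the correction, beside 2.99% and 2.81%. DESeq2 called 2, ATF3 and VEGFA, and limma-voom 0. After the correction the same 2 passed in edgeR, both lower, beside 0.190% of all genes. These lists were drawn up with earlier results of these data known, so the shares are a description and no test of the lists. ATF3, a stress-induced repressor that is also an immediate early gene, stood at 53.2, 54.5 and 52.7 CPM in the controls and at 35, 32.4 and 34.2 CPM with the HRAS guide. Each group was tight and the groups lie far apart, and ATF3 fell by 0.67 ± 0.058 on the log2 scale in the corrected fit (edgeR adjusted p = 0.000748). VEGFA, an angiogenic growth factor induced by ATF4 and by hypoxia, stood at 136, 149 and 133 CPM against 98.8, 97.0 and 101 CPM. It fell by 0.48 ± 0.055 on the log2 scale in the corrected fit (edgeR adjusted p = 0.00449), a call lost when control replicate 3 or HRAS guide replicate 1 or 3 was left out.

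None of the sensors or the further folding genes passed. In the sensor and eIF2 list 14 were negative and 16 positive with a median log2 fold change of 0.016, and EIF2B2, a subunit of the eIF2 exchange factor, had the smallest p at -0.22 ± 0.10 (edgeR adjusted p = 1.00). CREB3L2, an ER-bound transcription factor, followed at -0.15 ± 0.11. In the folding list 28 were negative and 12 positive with a median of -0.017, and 31 and 9 after the correction with a median of -0.027. SEC61G, a subunit of the translocon, had a log2 fold change of 0.17 ± 0.11 and MANF, a secreted ER stress protein, of -0.11 ± 0.10. Among the further ATF4 targets 20 were negative and 16 positive, with a median of -0.0077, or 17 and 19 with 0.0048 after the correction.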

How the data were processed

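RNA was measured in 6 libraries, 3 per group. The authors deposited whole-number gene counts with no normalization. Per the submitters' processing notes, HISAT2, StringTie, DESeq2 and the hg38 build were used, without versions or roles. Counting tool, annotation release and strandedness: not given in the sources used here. Of 60664 rows, 1 without values was left out. A column was given to a library where its name held that library's guide and replicate number. Gene coordinates, lengths and GC content came from GENCODE 29 (GRCh38). For the correction, length and GC content were medians over all annotated transcripts of a gene, short ones included. For HSP90B1 this length was 728 bases, against 2858 for its longest principal transcript. Totals of 24968702 to 32283370 counts limit the precision of genes near 1 CPM.

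After filterByExpr (19836 genes) and TMM scaling, the groups were compared by the two-sided quasi-likelihood test of edgeR 4.0.16 (R 4.3.3), Benjamini-Hochberg adjusted over all tested genes, with a threshold of 0.05. SEs were recovered from the F statistic, and 95% intervals from the SEs. For the correction, splines of GC content (5 degrees of freedom) and log10 transcript length (4) were fitted robustly to the deviation of every library from the average log2 CPM (prior count 2), using genes above a mean log2 CPM of 1, and entered edgeR as offsets for 19489 annotated genes. Corrected intervals leave out the uncertainty of the offsets. Differences within sets of libraries used log2(CPM + 0.1).

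Other settings were DESeq2 1.42.0, limma-voom (limma 3.58.1), other scalings and filters, a replicate block, a covariate for the sign of a library's GC trend (the set covariate), and each library left out. Scripts were tested on simulated counts with an assumed spread. With the GC trend included, edgeR as counted recovered 0.00% of 1.25-fold and 66.0% of 1.5-fold changes. The corrected fit recovered 84.0% and 98.0% of these, with 8 false calls. All 34 genes may be named, and of the other pathway lists the genes past the threshold with or without the correction and the 2 of smallest p in each list. The genes, lists and settings were chosen with earlier results of these data known. Promoter windows are RefSeq's (GRCh38.p14).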

Additional observations from a re-analysis of the deposited data

How the results depend on the processing

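Of the 34 genes, 12 kept the sign of their log2 fold change in all settings that could test them and 22 did not, and PPP1R15A was the only one called in any setting. PPP1R15A stayed between -0.44 and -0.29, called with the GC and length correction, with the set covariate (-0.42, adjusted p = 0.00355), and with the correction without control replicate 1 or 2. It was not called by DESeq2 (0.443), with no filter (0.103) or with the correction and the replicate block (0.339). Genes called over the whole table, 2 in edgeR, numbered 39 with the correction, 28 with DESeq2, 57 with no filter, 81 with the set covariate, 6 with the correction and the replicate block, 1 with limma-voom, DESeq2 size factors, a 1 CPM filter or the replicate block, and 1 to 131 with a library left out. Members called numbered 1 with the correction and with the set covariate, and 0 to 1 with a library left out. Genes of the other pathway lists called numbered 2 with the correction, with DESeq2 and with no filter, 1 with the correction and the replicate block (ATF3), 3 with the set covariate (BBC3, named after its value was seen, VEGFA and ATF3), and 0 to 2 with a library left out. Same-numbered libraries did not deviate together, with r of -0.54, -0.66 and -0.14 as counted and -0.31, -0.39 and -0.061 after the correction. The GC differences between libraries enter the r as counted. These r therefore cannot decide whether same-numbered libraries share a culture or a day, which the labels do not state.

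The median of the ER chaperone genes was -0.067 with the set covariate and -0.084 to -0.027 with a library left out. The medians of the ATF4 amino acid targets and of the PPP1R15A and DDIT3 arm took both signs with a library left out, from -0.017 to 0.066 and from -0.10 to 0.026. Signs turned, all without a call, as follows. With the correction DNAJB9 stood at -0.021, CRELD2 at 0.0042, PHGDH at 0.0037, SLC7A5 at 0.018, SESN2 at 0.016, DDIT4 at 0.019 and ATF5 at 0.029. With the correction and the replicate block these were -0.019, 0.0088, 0.0052, 0.018, 0.017, 0.020 and 0.034, in the same order. With the replicate block alone ATF5 was at 0.0040. With the set covariate DNAJC3 was at 0.049, SDF2L1 at -0.10, SHMT2 at -0.0045, SLC3A2 at -0.049 and TRIB3 at -0.0034. With library totals PHGDH was at 0.011, DDIT4 at 0.0080 and ATF5 at 0.0015, and with limma-voom ATF5 was at 0.0086. SDF2L1 was at -0.0033 with DESeq2 and with its size factors, -0.0040 with no filter and -0.0021 with a 1 CPM filter.

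With a library left out, as counted or corrected, HSPA5 ran from -0.16 to 0.0026, DNAJB9 from -0.094 to 0.10, DNAJC3 from -0.15 to 0.023, SDF2L1 from -0.12 to 0.19, CRELD2 from -0.18 to 0.14 and EDEM1 from -0.033 to 0.15. ASNS ran from -0.23 to 0.18, PSAT1 from -0.054 to 0.12, PHGDH from -0.11 to 0.10, MTHFD2 from -0.0058 to 0.090, SLC7A5 from -0.094 to 0.061, SLC3A2 from -0.071 to 0.13, CHAC1 from -0.28 to 0.050, SESN2 from -0.10 to 0.086, DDIT4 from -0.080 to 0.072 and STC2 from -0.024 to 0.090. ATF4 ran from -0.10 to 0.038, ATF5 from -0.15 to 0.22, TRIB3 from -0.0019 to 0.17, CEBPB from -0.11 to 0.051 and CEBPG from -0.063 to 0.14. The cause of these turns was not tested. ALDH1L2 and VLDLR, near 1 CPM, are limited by depth.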
